A study of Rattus norvegicus with 8 samples.

Results

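The genes described here encode 9 structural proteins of the myelin sheath, Mbp, Mog, Mag, Cnp, Mobp, Mal, Cldn11, Opalin and Pllp. They were chosen by name, as the probe sets whose only listed gene symbol is 1 of these, and all 9 were measured, each by 1 probe set, among 15037 genes with a symbol of their own and 23188 probe sets in all. RNA came from 2 groups of primary oligodendrocyte progenitor cell (OPC) cultures, made from the brains of Sprague Dawley rat pups of both sexes at postnatal days 1 to 2. Interleukin-4 (IL-4), a type 2 cytokine, was added at 20 ng/mL for 3 d in the IL-4 group, and phosphate-buffered saline (PBS) for 3 d in the PBS group, with 4 arrays in each. The study describes a serum-free defined medium with platelet-derived growth factor and basic fibroblast growth factor for its OPC cultures. Its methods do not say whether these factors were present during the 3 d of treatment. No gene was altered in either group. The study states 4 biologic replicates per group, and the labels do not say which pups or preparations a culture came from, so the p-values measure the spread between these arrays. RNA was taken from whole cultures, so that fewer cells of a type and less RNA per cell cannot be told apart.

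Myelin is the spiral of membrane that oligodendrocytes wrap around axons. Its compact layers are held together by small basic proteins on the cytoplasmic face and by membrane-spanning proteins between the layers, while adhesion molecules sit on the innermost and outermost turns. When an OPC differentiates, it lowers receptors and proteoglycans such as Pdgfra and Cspg4, passes through a premyelinating stage, and switches on the myelin genes under transcription factors that include Sox10 and Myrf.

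The DNA just before the start of the genes was read from RefSeq (build GRCr8; the array was designed on rn6), as 250 bases upstream of each start. A window was found for 8 of the 9 genes, Mog being the one without, and Mbp had 2 windows. The 3 windows below belong to Mal, the gene with the largest rise after IL-4, to Mobp, which also rose, and to Opalin, whose levels split the PBS arrays. Capitals mark every match, on either strand, to the words ACAAAG or ACAATG, which SOX proteins bind, and to CTGGCAC or CTGGTAC, which MYRF binds. Matches on the reverse strand appear as their reverse complements, and no matches overlapped one another.
Mal, chr3:135341424-135341673, minus strand: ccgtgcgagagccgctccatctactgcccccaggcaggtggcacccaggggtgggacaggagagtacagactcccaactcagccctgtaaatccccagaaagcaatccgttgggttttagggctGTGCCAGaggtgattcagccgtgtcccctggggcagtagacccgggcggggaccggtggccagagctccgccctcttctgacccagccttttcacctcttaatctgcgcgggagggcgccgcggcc
Mobp, chr8:128746982-128747231, plus strand: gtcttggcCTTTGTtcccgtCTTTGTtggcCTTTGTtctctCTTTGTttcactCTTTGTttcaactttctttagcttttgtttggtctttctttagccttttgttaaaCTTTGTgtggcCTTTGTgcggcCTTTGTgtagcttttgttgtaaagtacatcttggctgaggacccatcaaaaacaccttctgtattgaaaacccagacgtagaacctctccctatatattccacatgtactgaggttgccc
Opalin, chr1:249858191-249858440, minus strand: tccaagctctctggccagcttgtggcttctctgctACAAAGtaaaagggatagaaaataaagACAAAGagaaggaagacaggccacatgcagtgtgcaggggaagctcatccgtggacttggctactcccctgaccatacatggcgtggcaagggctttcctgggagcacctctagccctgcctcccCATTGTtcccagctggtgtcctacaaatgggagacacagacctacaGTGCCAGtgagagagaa

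The word CTGGCAC occurred before 4 of the 8 genes, Mal, Opalin, Mag and Cnp, and in 3.78% of all 33469 promoter windows. In Mal it lay 126 to 120 bases and in Opalin 17 to 11 bases before the start. CTGGTAC occurred before Cldn11 alone (1.78% of all windows). ACAAAG occurred before 5 genes, Mbp, Mag, Cnp, Mobp and Opalin (16.3% of all windows). The Mobp window held 8 copies, a number reached in 2 of the 33469 windows, that of Mobp included. These copies stand in rows of near-repeats, so they are not independent matches. ACAATG occurred before Mbp and Opalin (11.1%). The word of STAT6, the factor activated by the IL-4 receptor, was searched as TTC and GAA with 4 free bases between, and that of PPAR receptors as a direct repeat of AGGTCA with 1 base between. Neither was found in the windows of the 8 genes, and they occurred in 6.25% and 0.0508% of all windows. These matches describe letters in the windows and do not show binding. Of the 4 genes with CTGGCAC, only Mal passed the test described below. The log2 difference (IL-4 minus PBS) was 3.31 for Mal and -0.64 for Opalin, with Cnp at 0.32 and Mag at 0.16. The values of Cnp and Mag turned below 0 under quantile normalization. Whether the word has a part in the differences was not tested.

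Levels are log2 RMA signals, on which a difference of 1 is a 2-fold change. Array medians lay between 6.13 and 6.16, and the highest value was 19.92 to 19.93 on the IL-4 arrays and 19.81 to 19.82 on the PBS arrays. Each gene was compared by limma in a fit across the whole table of 23188 probe sets, with Benjamini-Hochberg adjusted p-values. The fit takes a common variance per gene for both groups. Where the PBS arrays spread more widely than the IL-4 arrays, as for Mal, Mog and Mobp, the calls rest on that pooled spread. The words rose and fell are kept for an adjusted p under 0.05, and by this rule 12% of all probe sets rose and 19.7% fell. The split depended on the scaling, at 14.7% and 14.8% under cyclic loess, 14.1% and 15.4% under quantile normalization, and 8.8% and 26.6% with the brightest 1% of probe sets as the scale. The IL-4 arrays were more alike than the PBS arrays. Pairs of IL-4 arrays had 1413 to 1668 probe sets with the same value to 2 decimals, against 248 to 329 for pairs of PBS arrays.

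Of the 9 structural myelin genes, 4 rose after IL-4 (Mbp, Mobp, Mog and Mal), where 12% of all probe sets rose. None fell by limma, where 19.7% of all probe sets did, and 5 passed in neither direction. An unadjusted p under 0.05 was reached by 6 genes, all with a positive difference that for Mbp and Cnp turned below 0 under quantile normalization. Mal rose 9.92-fold, Mog 2.03-fold, Mobp 1.66-fold and Mbp 1.29-fold, the value for Mbp turning below 0 under quantile normalization. The median log2 difference of the 9 genes was 0.37, against -0.07 over all probe sets, and was -0.04 under quantile normalization. All IL-4 arrays lay above all PBS arrays for the same 4 genes, as for 12.2% of all probe sets. With the further requirement of a change over 2-fold, Mal and Mog passed, 2 of 9, against 2.16% of all probe sets.

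**Figure D1:**
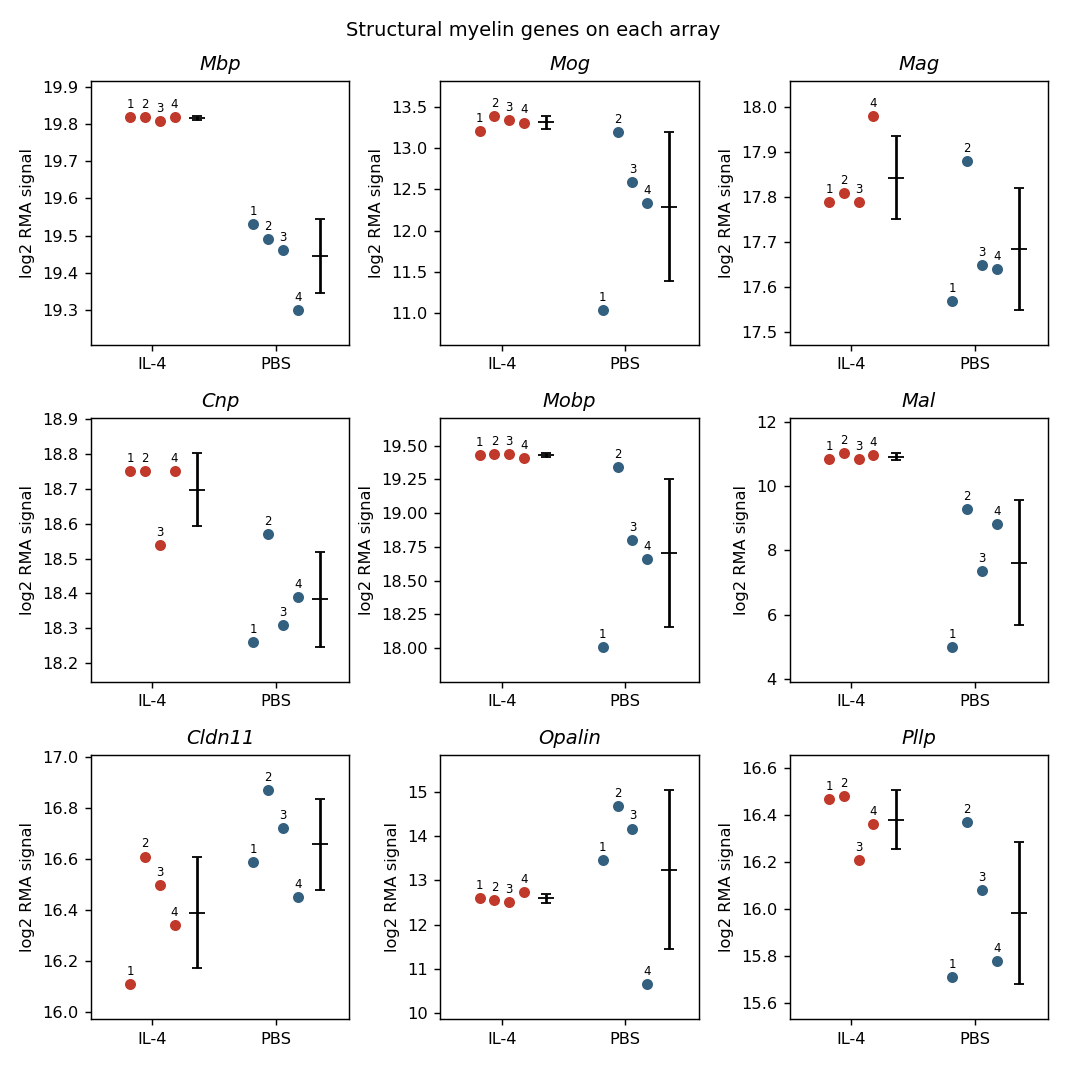
Log2 RMA signal of each of the 9 structural myelin genes on the 4 IL-4 arrays (red) and the 4 PBS arrays (blue), numbered by replicate, with the mean and SD of each group as a bar beside the points; each panel has its own vertical scale, which does not start at 0. The IL-4 points lie close together and above all PBS points for Mbp, Mog, Mobp and Mal, while the PBS points of Mog, Mobp, Mal and Opalin are spread widely.

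Mal encodes a small tetraspan lipid-raft protein of compact myelin that takes part in sorting membrane to the sheath. Its signal was 10.85, 11.04, 10.85 and 10.99 on the IL-4 arrays, against 4.99, 9.30, 7.37 and 8.83 on the PBS arrays. The IL-4 arrays were nearly level, and every one lay above the PBS arrays, which differed widely, with PBS array 1 lowest. Mal averaged 10.93 ± 0.097 after IL-4 and 7.62 ± 1.94 after PBS (SD, n = 4 each), a log2 difference of 3.31 (SE 0.73, 95% interval 1.71 to 4.91, limma adjusted p = 0.0065). On PBS array 1 it was below the 95th percentile (5.41) of the mean signals of 1024 olfactory receptor genes, which serve as a gauge of dim probe sets, so the size of the difference there cannot be read exactly. Without that array the difference was 2.43 (adjusted p = 0.0019).

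Mobp encodes a small basic protein of the cytoplasmic face of compact myelin. It read 19.43, 19.44, 19.44 and 19.41 on the IL-4 arrays, against 18.01, 19.34, 18.80 and 18.66 on the PBS arrays. The groups did not overlap, but PBS array 2 lay just below the IL-4 arrays. The means were 19.43 ± 0.014 after IL-4 and 18.70 ± 0.55 after PBS (SD, n = 4 each), and the log2 difference was 0.73 (SE 0.22, 95% interval 0.23 to 1.22, limma adjusted p = 0.030). Under quantile normalization it was 0.34 (adjusted p = 0.32), and under cyclic loess 0.60 (adjusted p = 0.061), neither of which passed. The call was made in 8 of 17 alternatives, and was also lost without any 1 of the IL-4 arrays (adjusted p = 0.062 to 0.066), without PBS array 3 (0.056) or 4 (0.058) and by the methods' t-test (0.10).

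Mbp encodes myelin basic protein, which binds the cytoplasmic faces of the membrane together. Its signal was 19.82, 19.82, 19.81 and 19.82 on the IL-4 arrays and 19.53, 19.49, 19.46 and 19.30 on the PBS arrays. The groups did not overlap, and here PBS array 4 was lowest and PBS array 1 highest of its group. Mbp averaged 19.82 ± 0.0050 after IL-4 and 19.45 ± 0.10 after PBS (SD, n = 4 each), a log2 difference of 0.37 (SE 0.10, 95% interval 0.15 to 0.60, limma adjusted p = 0.018) that was -0.07 (adjusted p = 0.65) under quantile normalization. It was 0.21 under cyclic loess (adjusted p = 0.16) and 0.28 with the brightest 1% as the scale (adjusted p = 0.062), which did not pass either.

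Mbp was the 7th brightest of all probe sets and lay 0.11 below the highest value of the IL-4 arrays and 0.37 below that of the PBS arrays. All 20 of the brightest probe sets had a positive difference, with a median of 0.37 on the log2 scale, and 18 of them passed the test. Under quantile normalization 8 of these 20 were positive. Actb, the cytoskeletal actin gene and the named gene nearest to Mbp in mean signal, differed by 0.40 (adjusted p = 0.011), and by -0.01 under quantile normalization. Eef1a1, a translation factor gene and the next nearest, differed by 0.60 (adjusted p = 0.0013). Of the 30 probe sets ranked 21 to 50, which include Mobp and Cnp, 29 had a positive difference and 18 rose, with a median of 0.34. Among probe sets ranked 51 to 100 the median was 0.21, and 42 of 50 were positive. It was 0.09 among those ranked 101 to 200 and -0.13 among those ranked 1001 to 2000. The part that position near the top of the scale has in the differences of Mbp, Mobp (23rd) and Cnp (45th) was not tested.

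**Figure D2:**
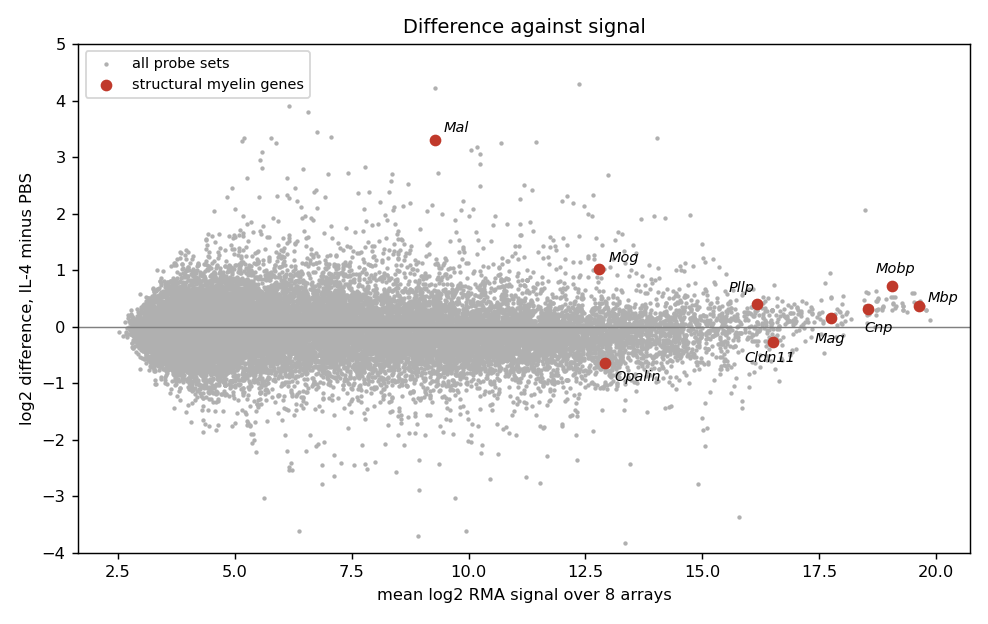
Log2 difference (IL-4 minus PBS, vertical axis) against mean log2 RMA signal over the 8 arrays (horizontal axis) for all probe sets (grey) and the 9 structural myelin genes (red), with 11 probe sets outside the plotted range. All 20 of the brightest probe sets lie above 0, Mbp among them, whereas Mal (3.31) stands above nearly all probe sets of like signal, and under quantile normalization the values of Mbp, Cnp and Mag turn below 0.

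Pllp encodes plasmolipin, a tetraspan proteolipid of the sheath related to Mal. The IL-4 arrays had 16.47, 16.48, 16.21 and 16.36, against 15.71, 16.37, 16.08 and 15.78 on the PBS arrays. PBS array 2 lay among the IL-4 arrays and the other PBS arrays below them. Pllp averaged 16.38 ± 0.13 after IL-4 and 15.99 ± 0.30 after PBS (SD, n = 4 each), and the log2 difference of 0.40 (SE 0.15, 95% interval 0.05 to 0.74, limma adjusted p = 0.073) did not pass the test.

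Cldn11 encodes claudin 11, which forms the tight junctions between the turns of central myelin. It read 16.11, 16.61, 16.50 and 16.34 on the IL-4 arrays, against 16.59, 16.87, 16.72 and 16.45 on the PBS arrays. The groups overlapped, with IL-4 arrays 1 and 4 below all PBS arrays. The log2 difference was -0.27 (SE 0.14, 95% interval -0.58 to 0.04, limma adjusted p = 0.17).

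Mag and Mog encode immunoglobulin-like proteins of the surface, Mag on the innermost turn facing the axon and Mog on the outermost turn. Mog had 13.21, 13.39, 13.34 and 13.31 on the IL-4 arrays, against 11.04, 13.19, 12.59 and 12.34 on the PBS arrays. The groups did not overlap by a narrow margin, since the highest PBS array (2) was just below the lowest IL-4 array (1). Mog averaged 13.31 ± 0.076 after IL-4 and 12.29 ± 0.91 after PBS (SD, n = 4 each), and the log2 difference was 1.02 (SE 0.35, 95% interval 0.25 to 1.80, limma adjusted p = 0.046). The call was made in 9 of 17 alternatives. It was lost without any 1 of the IL-4 arrays (adjusted p = 0.079 to 0.094), without PBS array 3 (0.065) or 4 (0.076), with trend and robust settings (0.075) and by the methods' t-test (0.15), and without PBS array 1, where Mog was lowest, the difference was 0.61 (adjusted p = 0.037).

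Mag had 17.79, 17.81, 17.79 and 17.98 on the IL-4 arrays, against 17.57, 17.88, 17.65 and 17.64 on the PBS arrays. PBS array 2 was above all IL-4 arrays but one. The log2 difference of 0.16 (SE 0.11, 95% interval -0.09 to 0.41, limma adjusted p = 0.31) turned to -0.04 under quantile normalization.

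Cnp encodes an enzyme with 2′,3′-cyclic nucleotide phosphodiesterase activity, which keeps cytoplasmic channels open within the sheath. Its signal was 18.75, 18.75, 18.54 and 18.75 on the IL-4 arrays, against 18.26, 18.57, 18.31 and 18.39 on the PBS arrays. Only IL-4 array 3 and PBS array 2 overlapped. The log2 difference of 0.32 (SE 0.11, 95% interval 0.06 to 0.57, limma adjusted p = 0.057) turned to -0.07 under quantile normalization.

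Opalin encodes a transmembrane sialoglycoprotein made by oligodendrocytes of the mammalian central nervous system. It read 12.60, 12.55, 12.51 and 12.74 on the IL-4 arrays, against 13.46, 14.68, 14.17 and 10.66 on the PBS arrays. The IL-4 arrays lay between PBS array 4, which was far below them, and the other 3 PBS arrays, which were all above them. The log2 difference over all 8 arrays was -0.64 (SE 0.67, 95% interval -2.13 to 0.84, limma adjusted p = 0.50). Without PBS array 4 it was -1.50 (adjusted p = 0.0020), so that the call for Opalin was decided by that array. PBS array 4 also had the highest mean of 11 microglial and macrophage genes, 9.79, against 8.93 to 9.04 on the IL-4 arrays and 8.24 to 8.64 on the other PBS arrays, and the part of this in the Opalin value was not tested.

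**Figure D3:**
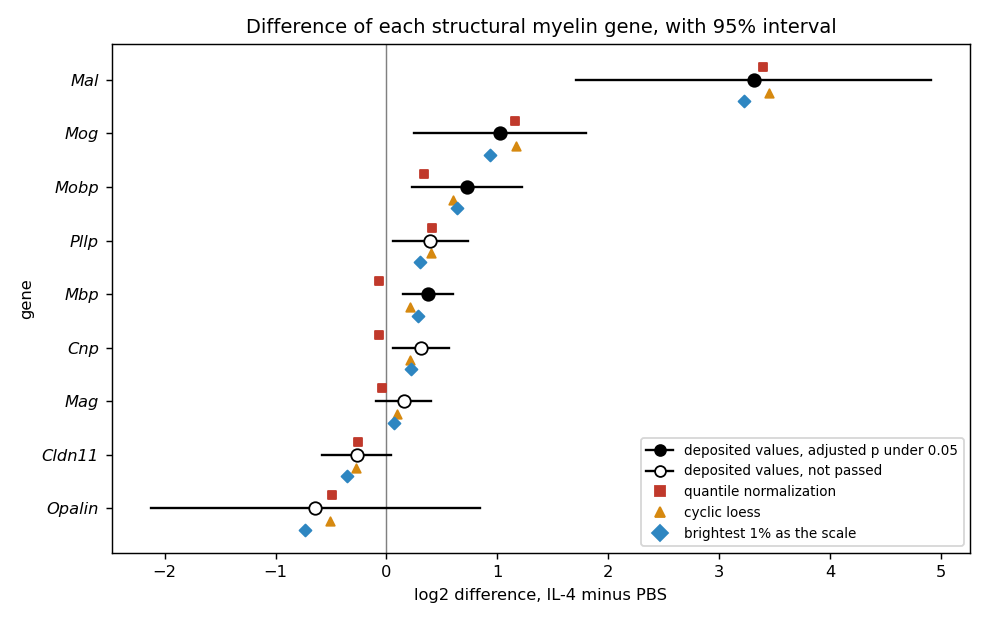
Log2 difference (IL-4 minus PBS, horizontal axis) of the 9 structural myelin genes (vertical axis), with the 95% interval of limma on the deposited values as a line and filled circles for an adjusted p under 0.05; squares, triangles and diamonds give the difference under quantile normalization, under cyclic loess and with the brightest 1% of probe sets as the scale. The 3 scalings hardly move Mal, Mog and Pllp, while the squares of Mbp, Cnp and Mag lie just below 0.

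The structural genes varied more among the PBS arrays than among the IL-4 arrays. The SD was larger in the PBS group for 8 of the 9 genes, the exception being Cldn11, and for 67.6% of all probe sets. The median SD of the 9 genes was 0.097 on the IL-4 arrays and 0.303 on the PBS arrays, against 0.154 and 0.219 over all probe sets. PBS array 2 was the highest of its group for 8 genes, all but Mbp, and PBS array 1 was the lowest for 6, namely Mog, Mag, Cnp, Mobp, Mal and Pllp. The share of all probe sets with either order was not counted. PBS array 2 reached or passed the lowest IL-4 array for Mag, Cnp, Cldn11, Opalin and Pllp. As deviations from the group means over the 8 arrays, each gene was set against the mean of the other 8 genes. Pearson's r was 0.919 for Pllp, 0.859 for Mobp, 0.786 for Mog and 0.785 for Mag, lay between 0.508 and 0.668 for Cnp, Mal, Opalin and Cldn11, and was 0.105 for Mbp. These values describe a few arrays that share a culture system, and the PBS arrays weigh most in them.

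**Figure D4:**
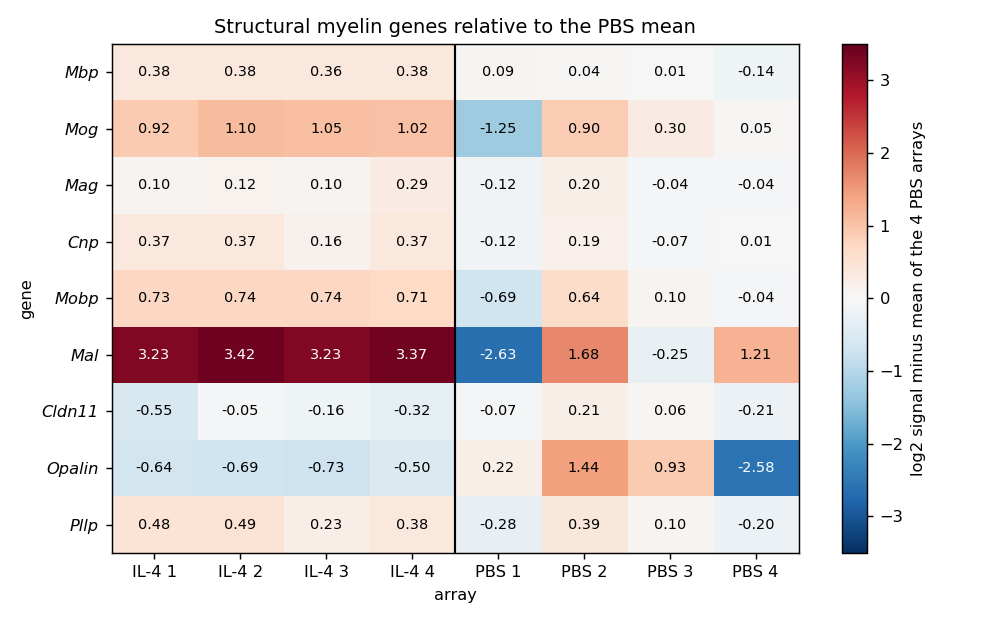
Log2 RMA signal of each structural myelin gene (vertical axis) minus its mean over the 4 PBS arrays, on each of the 4 IL-4 and 4 PBS arrays (horizontal axis), as colour and printed value. On PBS array 1 Mal (-2.63), Mog (-1.25) and Mobp (-0.69) were low, on PBS array 2 most genes were above the PBS mean, and on PBS array 4 Opalin was low (-2.58) while Mal was high (1.21).

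Several markers of the progenitor stage ran the other way among the PBS arrays. Of 8 measured OPC genes, 5 were highest on PBS array 1 (Pdgfra, Cspg4, Ptprz1, Bcan and Cacng4), and 7, all but Vcan, were lowest on PBS array 2. The shares of all probe sets highest or lowest on these arrays were not counted. Vcan, a proteoglycan gene, was lowest on PBS array 1, like most of the structural genes. Pdgfra, the platelet-derived growth factor receptor of OPCs, had 14.05, 14.04, 14.03 and 14.09 on the IL-4 arrays, against 15.07, 12.73, 14.04 and 14.17 on the PBS arrays. Cspg4, the NG2 proteoglycan of OPCs, had 7.08, 6.85, 6.88 and 6.90 on the IL-4 arrays, against 8.88, 6.46, 7.53 and 7.20 on the PBS arrays. Both were highest on PBS array 1, where Mal, Mog and Mobp were lowest, and lowest on PBS array 2. The brightest of the list, Ptprz1 and Bcan, had 16.34 to 16.59 and 14.19 to 14.67 on the IL-4 arrays, against 15.58 to 16.42 and 14.16 to 15.38 on the PBS arrays, which overlapped. Neither Pdgfra nor Cspg4 passed the test between the groups (adjusted p = 0.93 for Pdgfra and 0.27 for Cspg4). Of the list, 2 genes rose, Vcan and Matn4, and none fell, where 12% of all probe sets rose and 19.7% fell. Matn4 was below the gauge of dim probe sets (5.41) on PBS arrays 1, 2 and 3. The mean of the list was 12.07 to 12.21 on the IL-4 arrays and 11.24 to 12.32 on the PBS arrays. In both groups, cultures labelled as OPCs held progenitor RNA and myelin gene signals near the top of the scale.

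Markers of other cells also moved, and their counts are to be read beside the shares of all probe sets, of which 12% rose and 19.7% fell. Of 11 microglial and macrophage genes, 5 rose (C1qa, C1qb, Csf1r, P2ry12 and Aif1) and 2 fell (Cx3cr1 and Tmem119). The brightest were C1qb, a complement gene, at 14.89 to 15.08 on the IL-4 arrays and 12.49 to 13.98 on the PBS arrays, and Cd68, a lysosomal gene, at 12.36 to 12.50 on the IL-4 arrays and 12.31 to 14.19 on the PBS arrays. Complement genes were thus above the PBS arrays on every IL-4 array, while Cd68 overlapped. Of 8 astrocyte genes, 2 rose (Gfap, the brightest, and Slc1a2) and 3 fell (Slc1a3, Fgfr3 and Gja1), while Aldoc, the next brightest after Gfap, differed by -0.48 (adjusted p = 0.11). The mean of the list was 9.26 to 9.49 on the IL-4 arrays and 9.19 to 9.65 on the PBS arrays. Of 8 neuronal genes, Gad1 rose and the 2 brightest, Tubb3 and Syt1, fell, and their mean was 6.82 to 6.97 on the IL-4 arrays and 6.95 to 7.73 on the PBS arrays, with PBS array 1 highest. That array, the lowest for 6 structural genes, had the highest mean of the neuronal genes, but the genes of the list were mixed there. Syt1, Tubb3 and Snap25 were highest of the PBS arrays, Stmn2, Gad1 and Nefl were lowest, and Rbfox3 and Slc17a6 were neither. Of 4 measured genes of Schwann cells, the myelinating glia of nerves, Egr2 rose and Pmp2 fell, and their mean was 6.71 to 6.79 on the IL-4 arrays and 6.90 to 7.29 on the PBS arrays. Of 8 genes of fibroblasts and vessels, Pecam1 and Acta2 rose and Pdgfrb fell, at a mean of 5.39 to 5.49 on the IL-4 arrays and 5.22 to 5.53 on the PBS arrays. Pdgfrb and Tmem119 were below the gauge of dim probe sets (5.41) on every array. Pecam1 was below it on every PBS array, and Egr2 on all PBS arrays but array 4. The sizes of these differences cannot be read exactly. The part of other cells in the myelin gene values was not tested.

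Differences between pairs of structural genes on the same array were also taken. Their group means follow from the single-gene differences above, so they are a description and no separate support. The log2 difference between Mal and Cnp on the same array was -7.90 to -7.69 on the IL-4 arrays and -13.27 to -9.27 on the PBS arrays, without overlap. Between Mog and Cnp it was -5.54 to -5.20 on the IL-4 arrays and -7.22 to -5.38 on the PBS arrays, which overlapped. For Mobp and Cnp it was 0.66 to 0.90 on the IL-4 arrays and -0.25 to 0.77 on the PBS arrays, which overlapped as well. Between Cldn11 and Mobp it was -3.32 to -2.83 on the IL-4 arrays and -2.47 to -1.42 on the PBS arrays, so that Cldn11 was lower relative to Mobp on every IL-4 array. Between Opalin and Mobp it was -6.93 to -6.67 on the IL-4 arrays and -8.00 to -4.55 on the PBS arrays, where PBS arrays 1 to 3 lay above the IL-4 arrays and PBS array 4 below. For Opalin and Mog it was -0.84 to -0.57 on the IL-4 arrays and -1.68 to 2.42 on the PBS arrays, which overlapped. These are differences in change, and levels of different probe sets were not compared. They were taken on the deposited values only, and not for other pairs of probe sets. Under quantile normalization the log2 difference (IL-4 minus PBS) of Mobp was 0.34 and that of Cnp -0.07, and the values between genes were not recalculated.

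Other proteins of the sheath, its paranodes and its gap junctions were mixed. Of 14 measured genes, 6 rose (Hapln2, Ermn, Gjb1, Pmp22, Bcas1 and Cd82), 2 fell (Plekhb1 and Jam3) and 6 did not pass, with a median log2 difference of 0.31, where 12% of all probe sets rose and 19.7% fell. Hapln2, which links the matrix at the nodes of Ranvier, had 11.90, 11.70, 11.65 and 11.84 on the IL-4 arrays, against 7.59, 9.64, 8.49 and 9.16 on the PBS arrays. The groups stood far apart, with PBS array 1 lowest and PBS array 2 highest, as for Mal (log2 difference 3.05, limma adjusted p = 0.00023). Ermn, an actin-binding protein of late myelination, rose by 2.42 (adjusted p = 0.0038), and Gjb1, a connexin of myelin gap junctions, by 1.67 (adjusted p = 0.0063). Plekhb1, a pleckstrin homology domain protein, had 11.42, 11.32, 11.44 and 11.58 on the IL-4 arrays, against 13.15, 12.67, 12.98 and 13.19 on the PBS arrays. Its groups did not overlap, and it fell by 1.56 on the log2 scale (adjusted p = 4.6e-05).

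Enzymes of myelin lipid synthesis were examined next. By limma none of 8 measured genes passed in either direction, 1 reached an unadjusted p under 0.05, and the median log2 difference was 0.02. At the shares of all probe sets, few calls fall in a list of this length, and its difference from the structural genes was not tested. The smallest p-values belonged to Degs1, a dihydroceramide desaturase (log2 difference -0.29, adjusted p = 0.092), and Fa2h, the fatty acid 2-hydroxylase of myelin galactolipids (-0.38, adjusted p = 0.15). Ugt8, which makes galactosylceramide, read 17.57 to 17.61 on the IL-4 arrays and 17.28 to 17.74 on the PBS arrays, which overlapped.

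Of 10 measured transcription factors of myelin genes, none rose and 3 fell, where 12% of all probe sets rose and 19.7% fell. Myrf, which switches on myelin genes in oligodendrocytes, had 14.61, 14.50, 14.46 and 14.61 on the IL-4 arrays, against 15.24, 15.54, 15.17 and 14.91 on the PBS arrays. All IL-4 arrays lay below all PBS arrays (log2 difference -0.67, limma adjusted p = 0.0048). Sox10, the lineage factor of oligodendrocytes, fell by 0.46 on the log2 scale (adjusted p = 0.011, and 0.052 under quantile normalization). Nkx2-2, a homeodomain factor of the onset of differentiation, fell by 0.84 (adjusted p = 0.0019). Olig1 and Olig2, basic helix-loop-helix factors of the lineage, did not pass (adjusted p = 0.21 and 0.20).

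Of 6 measured genes of premyelinating oligodendrocytes, none rose and 4 fell, or 2 under quantile normalization and under cyclic loess, where 12% of all probe sets rose and 19.7% fell. Tmem163, a zinc transporter, had 11.16, 11.40, 11.42 and 11.42 on the IL-4 arrays, against 14.53, 12.64, 12.98 and 12.93 on the PBS arrays. The groups did not overlap, and PBS array 1 was far above the rest (log2 difference -1.92, limma adjusted p = 0.0020). Rras2, a small GTPase, fell by 1.61 on the log2 scale (adjusted p = 0.00055), Itpr2, an intracellular calcium release channel, by 0.43 (adjusted p = 0.025) and Fyn, a kinase of process outgrowth, by 0.32 (adjusted p = 0.045). Itpr2 and Fyn did not pass under quantile normalization (adjusted p = 0.078 and 0.10) or cyclic loess (0.080 and 0.078). Gpr17, a receptor of the premyelinating stage, had 18.04 to 18.12 on the IL-4 arrays and 17.26 to 18.48 on the PBS arrays and did not pass (adjusted p = 0.52).

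The pattern over the 8 arrays was also searched for in other genes, by Pearson's r with the mean z-score of the 9 structural genes. Of 15028 other named genes, 124 had an r over 0.9. The closest were Tex56p (r = 0.989), Slc12a2 (0.985), Rab31 (0.978), Or4c116 (0.978), Clmn (0.976) and Prr18 (0.972), and r of the deviations from the group means lay between 0.945 and 0.983 for these 6 genes. Tex56p and the olfactory receptor gene Or4c116 were dim, with mean signals of 3.90 and 5.10, inside the range of most olfactory receptor genes. Slc12a2, a sodium, potassium and chloride cotransporter, had 17.45, 17.56, 17.41 and 17.49 on the IL-4 arrays, against 17.02, 17.50, 17.27 and 17.17 on the PBS arrays. Like most of the structural genes it was lowest on PBS array 1, and PBS array 2 lay among the IL-4 arrays.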

How the data were processed

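RNA of 8 cultures (4 IL-4, 4 PBS) was hybridised to Affymetrix Clariom S rat arrays, 1 per sample. Per the submitters' processing notes, the authors used Affymetrix Expression Console, RMA and Transcriptome Analysis Console (version 4.0). The deposited values are log2 RMA signals for 23188 probe sets to 2 decimals, already background corrected, normalized and summarized by the authors, on build rn6. RMA can compress differences of very bright probe sets. Precision is limited by the number of arrays, which carry no read depth. The platform table gave a single symbol to 15049 probe sets, and 8139 were tested without a name. Where a gene had several probe sets the brightest was used.

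Differences (IL-4 minus PBS) were tested on all 8 arrays, without a filter, in R 4.3.3 by limma 3.58.1 (its lmFit and eBayes functions, no trend or robust setting) and Benjamini-Hochberg adjustment. The procedure was tested on simulated data. Tables, motif searches and figures used Python 3.11.15 with matplotlib 3.10.9, scipy 1.17.1, numpy 2.4.6 and pandas 2.3.3.

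The 9 genes, the 11 other lists (other sheath proteins, myelin lipid enzymes, transcription factors, premyelinating genes, OPC, microglia, astrocytes, neurons, fibroblasts and vessels, Schwann cells, housekeeping genes), the motifs and the naming rule were chosen with earlier results of these data known. The rule names all 9 genes, up to 4 genes of each of the first 4 lists with the largest difference among those that pass (or the 2 with the smallest p), the brightest 2 genes of the marker lists, Actb, which is also the gene nearest to Mbp in signal, and the 6 genes most like the 9. Eef1a1, Cspg4, Pdgfra, Cacng4, Ugt8, Gpr17, Olig1 and Olig2, and genes completing counts of 6 or fewer, were added after their values were seen. Of 9 measured housekeeping genes, 2 rose and 3 fell. The alternatives were quantile normalization, cyclic loess, scaling by the array median or the brightest 1% of probe sets, dropping probe sets below the 40th percentile of signal, limma with trend and robust settings, array weights, a replicate block, each array left out in turn, and the methods' t-test. The last is Student's t-test with a common variance and the same adjustment, which the study names for comparing 2 groups in general. For the arrays the study names Transcriptome Analysis Console and not this test.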

Additional observations from a re-analysis of the deposited data

Results flagged for a closer look

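Among 44 groups of 4 arrays examined for 1 value far from the rest, 4 stood out, and chance gives about 1 in 20. Mbp was 19.81 on IL-4 array 3 and 19.82 on the other IL-4 arrays, a gap of the last printed decimal. Cnp was 18.54 on IL-4 array 3 and 18.75 on the others. Mag was 17.98 on IL-4 array 4 and 17.79 to 17.81 on the others. Tmem163 was 11.16 on IL-4 array 1 and 11.40 to 11.42 on the others. No PBS array stood out by this measure.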

How the results depend on the processing

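The count of structural genes that rose was 4 in the fit reported and with scaling by the array median, and 2 to 6 with each array left out. It was 2 under quantile normalization (Mog and Mal), 2 under cyclic loess (Mog and Mal) and 2 by the methods' t-test (Mbp and Cnp). With the brightest 1% as the scale it was 3 (Mog, Mobp and Mal). Dropping dim probe sets gave 5, with Cnp added, and so did array weights. Trend and robust settings gave 5 (Mbp, Cnp, Mobp, Mal and Pllp). Without any 1 of the IL-4 arrays, without PBS array 3 or without PBS array 4, Mbp and Mal passed, and without PBS array 2 Cnp and Pllp passed as well as the 4. The count that fell was 0 to 1, the exception being Opalin without PBS array 4. The count over 2-fold was 1 with the brightest 1% as the scale, 1 with trend and robust settings, 0 by the methods' t-test, and 1 to 2 with each array left out. The median of the 9 genes was -0.0405 under quantile normalization, with Mbp at -0.0661, Mag at -0.0405 and Cnp at -0.0695, and was 0.30 to 0.39 with each array left out. Mal passed in 16 of 17 alternatives (adjusted p = 0.0014 to 0.054), Mog in 9 and Mobp in 8, and their differences stayed above 0 in all 17. Of the other lists, 4 sheath genes fell by the methods' t-test, 1 lipid enzyme fell with the brightest 1% as the scale and 1 with trend and robust settings (0 to 2 with each array left out), 1 transcription factor rose with trend and robust settings (0 to 2), and 2 premyelinating genes fell under quantile normalization and 2 under cyclic loess (2 to 3, with 0 to 1 rising). The causes were not tested.

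No pairing by replicate number was seen. Correlations of deviations were -0.0185 to 0.0059 for arrays of the same number and -0.0379 to 0.0519 for the others. The IL-4 arrays were nearly alike, so this check cannot show whether arrays shared a preparation. With the replicate block 3 structural genes rose (Mog, Mobp and Mal), and Mbp had an adjusted p of 0.052. Every structural gene has 1 probe set, so the choice among probe sets gave no other value. Mbp, Mobp and Cnp lay near the top of the scale, and the part of this in their differences was not tested.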
